A study of Mus musculus with 4 samples.

Results

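The border zone was the band of surviving heart muscle next to the infarct in 3 mouse heart sections, 1 taken 3 days post-infarction (3 dpi) and 2 taken at 5 dpi. It was compared between these times from the RNA captured on spots of a Visium array, a slide on which each spot covers a small area of tissue that can hold several cells. Its members were chosen from measured values. In each spot the cardiomyocyte (CM) share was the share of 12 muscle genes (Myh6, Tnnt2, Tnni3, Actc1, Myl2, Myl3, Pln, Mb, Ckm, Tcap, Ryr2 and Ttn) in the unique transcript counts (UMIs) that did not come from mitochondrial genes. A spot was low when this share was under 0.5 times the 90th percentile of its own section. Patches of 10 or more touching low spots made up the infarct zone (IZ). The border zone held the spots that were not low and lay 1 to 4 steps from the IZ on the hexagonal grid. It took in 897 of the 5909 kept spots of the series: 452 at 3 dpi and, at 5 dpi, 249 (labelled female) and 196 (labelled male).

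The border zone after an infarct is where living cardiomyocytes meet the scar that is being formed. Cardiomyocytes there are known to take up a stress programme with fetal natriuretic peptides and contractile isoforms, while fibroblasts are activated to lay down matrix and macrophages clear dead tissue. The step from 3 to 5 dpi lies in the change from the inflammatory to the proliferative phase of healing, when a provisional matrix rich in fibronectin and matricellular proteins, secreted proteins that tune how cells hold to matrix, is laid down.

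Spatial transcriptomes were made from Collagen1a1-GFP+ mice aged 8 to 12 weeks, which carry a GFP reporter of Col1a1, a collagen gene that fibroblasts use strongly. The GFP is thus meant to report Col1a1 expression, and it was also carried by the control. The control heart (n = 1) was from an uninjured mouse labelled female, the 3 dpi heart (n = 1) from a mouse labelled female, and the 5 dpi hearts (n = 2) from 1 mouse labelled female and 1 labelled male. In the infarcted mice the left anterior descending coronary artery was tied permanently. A single 10 µm section was used per heart, and RNA integrity numbers lay between 7.2 and 7.7. The control has no infarct and therefore no border, and its whole section served as the uninjured level.

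Sex labels did not go with the Y-linked genes, which gave 718 UMIs in the section labelled female, 1 in the one labelled male and 0 in the control and at 3 dpi. The sections are therefore named by their labels only, and at 5 dpi sex and heart cannot be told apart. Border sums held 1899224 UMIs outside mitochondrial genes at 3 dpi, 1072486 at 5 dpi labelled female and 950698 labelled male, and expression is given as CPM, a gene's UMIs scaled to 1000000 of them. Spots of a section are not replicates, so all comparisons between times rest on 3 hearts. With 1 heart against 2, an exact permutation test cannot go below p = 0.333, so none was used. Intervals given for single sections are exact 95% intervals, and they cover counting error only.

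The border was smaller at 5 dpi. At 3 dpi 25.8% of kept spots belonged to it (interval 23.8 to 27.9), and at 5 dpi 15.9% (14.1 to 17.8; labelled female) and 13.8% (12.0 to 15.7; labelled male), while the IZ took 50.5%, 69.0% and 48.1%. The 5 dpi pair thus differed little in border extent and more in IZ extent. The limit on the share decided the order of these extents: at 0.6 times the percentile the border took 21.8%, 13.98% and 16.4%, and with 1 limit from the control section for all it took 14.9%, 11.6% and 20.4%. At 3 dpi the border fell into 6 pieces, the largest of 369 spots, against 3 pieces in each 5 dpi section with 245 and 109 spots in the largest. Both 5 dpi sections enclose a cavity and the 3 dpi section does not, so the level at which a heart was cut and the time cannot be told apart.

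**Figure D1:**
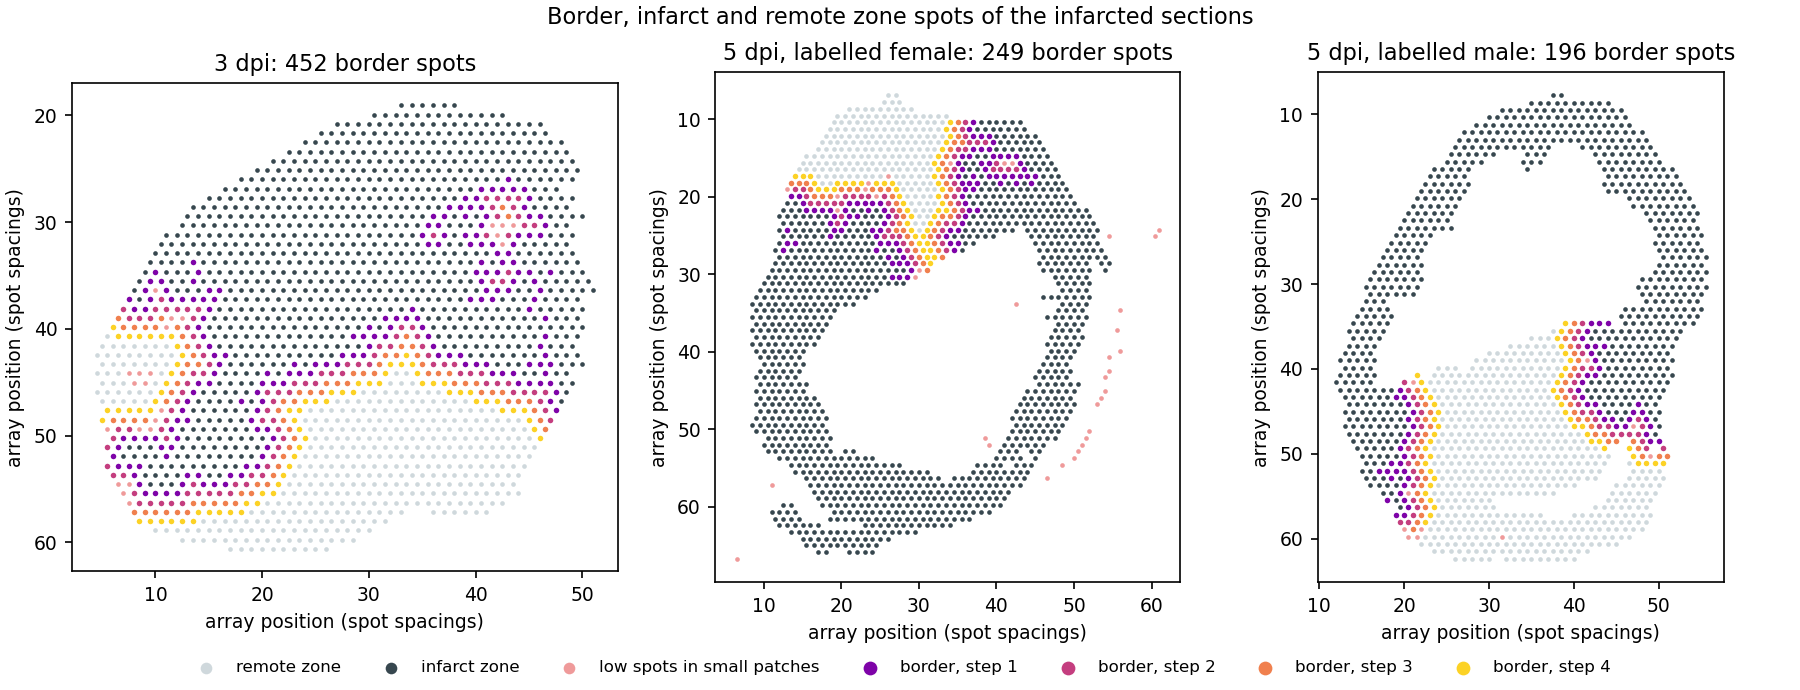
Zones of the 3 infarcted sections, with array positions in spot spacings on both axes and 1 point per kept spot. Colours from violet to yellow mark border spots at steps 1 to 4 from the IZ (dark), grey marks the remote zone and pink the low spots in small patches. The 452 border spots at 3 dpi line a long, indented edge, and the 249 and 196 spots at 5 dpi line shorter ones around an open cavity.

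The steps were not filled alike. Step 1, the row that touches the IZ, held 41.6% of border spots at 3 dpi, 39.0% at 5 dpi labelled female and 29.6% labelled male. Values at the limit of the rule lay close together: the lowest CM share of a border spot was 5.28% at 3 dpi, 4.33% and 4.64% at 5 dpi, and the highest of an IZ spot 5.28%, 4.27% and 4.58%. The median share in the border was 7.21%, 6.13% and 6.31%. These shares chose the spots and are given as description only. Mitochondrial genes took 31.6%, 32.4% and 22.3% of border UMIs, so the section labelled male stood apart in this measure, which is why it was kept out of the CPM total. The median border spot held 6257.5, 5987 and 5526.5 UMIs.

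Marker lists were summed to see what else the border spots held. CM markers, the zone genes themselves, summed to 73440 CPM at 3 dpi, 61557 at 5 dpi labelled female and 64480 labelled male. Fibroblast markers summed to 5127, 7471 and 5674 CPM, against 1008 in the control. Macrophage markers were at 2746, 2840 and 2205 CPM, so the 3 dpi value lay between those of the 5 dpi pair. Endothelial markers summed to 660, 843 and 746 CPM and mural markers to 432, 634 and 478. Neutrophil, lymphocyte, mesothelial and atrial markers reached at most 82.1 CPM in sum in each border. Of these markers, Retnlg, Cxcr2, Cd3e, Ms4a1, Upk3b, Krt19, Sln and Myl7 had 0 UMIs in at least 1 border. Neutrophil markers still summed to 69.0, 82.1 and 40.0 CPM, against 16.3 in the control. In sums over spots, fewer cells of a type and less RNA per cell cannot be told apart.

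Each 5 dpi border was set against the 3 dpi border. A gene was called when both 5 dpi sections lay on the same side of 3 dpi, the nearer by at least 1.5-fold and by more than the 5 dpi pair differed from each other. Among 5513 genes with a mean of at least 20 CPM, 101 were called higher (1.83%) and 75 lower (1.36%), and at 2-fold 23 and 9 were. The filter takes the mean of 1 section at 3 dpi and 2 at 5 dpi, so a gene low at 3 dpi passes it more easily than one low at 5 dpi, and the split between higher and lower leans to the higher side. Of the 101, 34 were under 20 CPM at 3 dpi, and of the 75, 16 had a 5 dpi mean under it. With each time given equal weight in the filter, an alternative chosen after seeing the data, 91 were higher and 85 lower. This is a rule of size and not a test. For scale, 1087 of these genes differed at least 1.5-fold between the 5 dpi hearts, and the median log2 ratio over all 5513 genes was 0.02 for the section labelled female and −0.07 for that labelled male. Leaving out a 5 dpi section also removes the check against the pair: with the section labelled male alone 242 genes were higher and 565 lower, and with that labelled female alone 447 and 252. With the zone limit taken from the control section the split turned to 61 higher and 143 lower, and only 9 of the 101 and 25 of the 75 were still called. Taking CPM over all UMIs, mitochondrial ones included, turned the split to 137 higher and 34 lower, with median log2 ratios of −0.02 and 0.13.

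**Figure D2:**
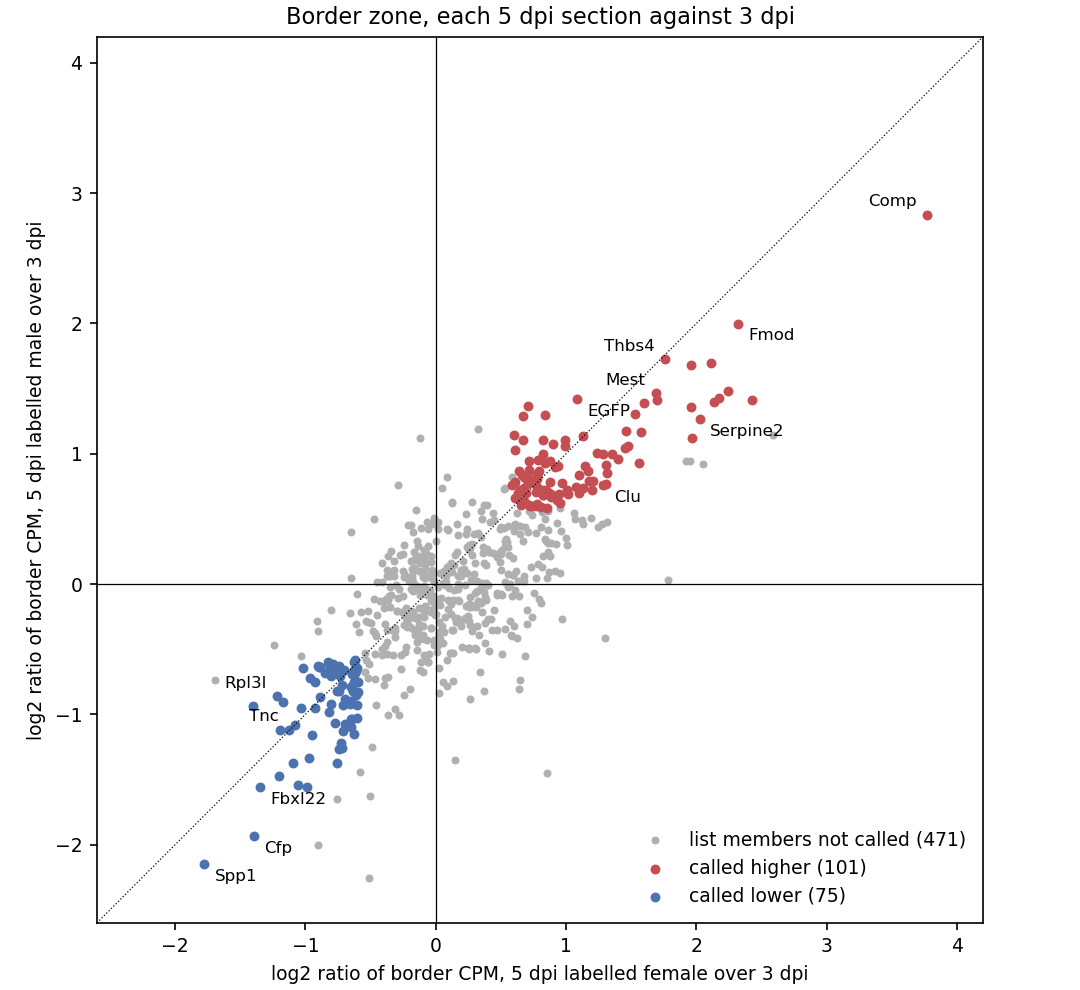
Log2 ratio of border CPM over 3 dpi for the 5 dpi section labelled female (horizontal) and male (vertical), 1 point per gene. Red points are the 101 genes called higher, blue the 75 called lower and grey the members of the gene lists that were not called; the dotted line marks equal ratios. Comp lies at 3.77 and 2.83 and Spp1 at −1.78 and −2.15, at opposite ends.

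Relative to the control section, 98 of the 101 genes called higher were above its level in both 5 dpi borders, as were 3118 of all 5513. Of the 75 called lower, 55 had been above it at 3 dpi, as had 3802 of the 5513. In the remote zone (RZ), the muscle farther than 4 steps from the IZ, both 5 dpi sections were above 3 dpi for 67 of the 101 and below for 52 of the 75, against 1548 above and 1908 below over the 5513.

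Matricellular genes moved in both directions. Of 20 matricellular genes tested 7 were higher and 3 lower, with a median log2 ratio of 0.74 for the section labelled female and 0.54 for that labelled male. Comp (ENSMUSG00000031849), a cartilage matrix protein of the thrombospondin family, stood at 3.69 CPM at 3 dpi (7 UMIs). It reached 50.4 CPM at 5 dpi labelled female and 26.3 labelled male, 13.7-fold and 7.13-fold higher, and it passed the filter through the 5 dpi sections alone. The control level was 3.16 CPM, so Comp at 3 dpi was near it. Thbs4 (ENSMUSG00000021702), another thrombospondin, rose from 68.4 CPM at 3 dpi to 232 and 226 at 5 dpi, against 6.06 in the control. Its 5 dpi hearts nearly coincided and both were more than 3-fold above 3 dpi.

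Other matricellular genes followed the same order at smaller size. Postn, periostin, a marker of activated fibroblasts, rose from 1222 CPM at 3 dpi to 2359 and 1970, with 41.1 in the control. Cilp, made by matrix-producing fibroblasts, was at 151, 373 and 257 CPM, and Mfap5, a microfibril protein, at 370, 831 and 673. Sparcl1, an anti-adhesive protein, was at 221, 352 and 343 CPM, only a little above its control level of 298. A call requires both 5 dpi hearts on the same side of 3 dpi, so this order adds nothing to the calls.

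Provisional and elastic matrix gave 4 higher calls of 15 tested and none lower. Fn1, fibronectin, was at 592 CPM at 3 dpi and 1073 and 890 at 5 dpi. It was the higher call nearest to the limit, at a log2 ratio of 0.59 in the nearer section, and Thra, a thyroid hormone receptor gene, fell just outside at 0.58. Eln, tropoelastin, was at 102, 162 and 169 CPM, Fbln5, which helps assemble elastic fibres, at 34.2, 58.7 and 61.0, and Ltbp4, which binds latent TGF-beta, at 227, 525 and 393. With the zone limit from the control section the log2 ratio of Fbln5 in the nearer section turned to −0.18. Among small leucine-rich proteoglycans 2 of 7 were higher. Fmod, fibromodulin, which guides collagen fibril growth, was at 8.95 CPM at 3 dpi against 44.8 and 35.8 at 5 dpi and, like Comp, passed the filter through the 5 dpi sections alone. Aspn, asporin, was at 94.8 against 184 and 146.

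Of 17 collagens tested 11 were above 3 dpi in both 5 dpi hearts and 0 below, against 1433 above and 1800 below over all 5513 genes, with median log2 ratios of 0.77 and 0.13. By size 3 were called higher: Col12a1, which coats fibrils, at 23.2, 90.4 and 50.5 CPM, Col16a1 at 69.5, 111 and 123, and the basement membrane collagen Col18a1 at 53.2, 97.0 and 86.3. The main fibril collagens were not called. Col1a1 was at 1286 CPM at 3 dpi, 1856 at 5 dpi labelled female and 1011 labelled male, so the 5 dpi hearts lay on either side of 3 dpi, and Col3a1 was at 1950, 2496 and 1960. The list of 19 genes for collagen folding and crosslinking held 0 calls either way, against 101 higher and 75 lower of all 5513 genes. Acta2, smooth muscle actin of myofibroblasts and vessel walls, was at 348, 343 and 326 CPM.

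GFP transcript and the study's own fibroblast markers were read beside these. EGFP rose from 1266 CPM at 3 dpi to 2682 and 3388, with 684 in the control, and was called, unlike Col1a1 itself. In the RZ EGFP was at 867, 1648 and 2471 CPM, so it was higher at 5 dpi there too. Of 6 markers of reparative fibroblasts used by the study, Postn, Fn1 and Ddah1 were called higher. Cthrc1, at 109, 163 and 192 CPM and 0 in the control, was above 3 dpi in both 5 dpi hearts and narrowly missed the 1.5-fold limit. The log2 ratio of Ddah1 in the nearer section turned to −0.54 with the zone limit from the control section. Lists D1 and D2, RNA velocity genes of the study of which 43 and 57 were used here and which may be part of longer lists, gave 6 higher of 36 and 8 higher with 1 lower of 43 tested.

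Secreted proteases and their inhibitors gave 2 higher calls of 15 tested and 0 lower, against 101 higher and 75 lower of all 5513 genes. Mmp2, a gelatinase, was at 91.6 CPM at 3 dpi, level with the control at 90.1, and at 273 and 206 CPM at 5 dpi. Serpine2, an inhibitor of thrombin and plasmin, was at 54.2 CPM against 221 and 130. These were the 2 calls of that list. Timp1, an inhibitor of matrix proteases, was at 702 CPM at 3 dpi, 839 and 499 at 5 dpi. Serpinb1a, an intracellular inhibitor of neutrophil proteases, was at 57.9, 226 and 148 CPM. Mdk, midkine, a heparin-binding growth factor, was at 23.7, 71.8 and 62.1, and Mest, an imprinted gene of fetal mesoderm, at 26.3, 84.9 and 72.6. Rflnb, a regulator of filamin at the actin skeleton, was at 31.1, 89.5 and 76.8 CPM, and Igfbp3, a binding protein of insulin-like growth factors, at 15.8, 84.8 and 42.1, which like Comp passed the filter through the 5 dpi sections alone.

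**Figure D3:**
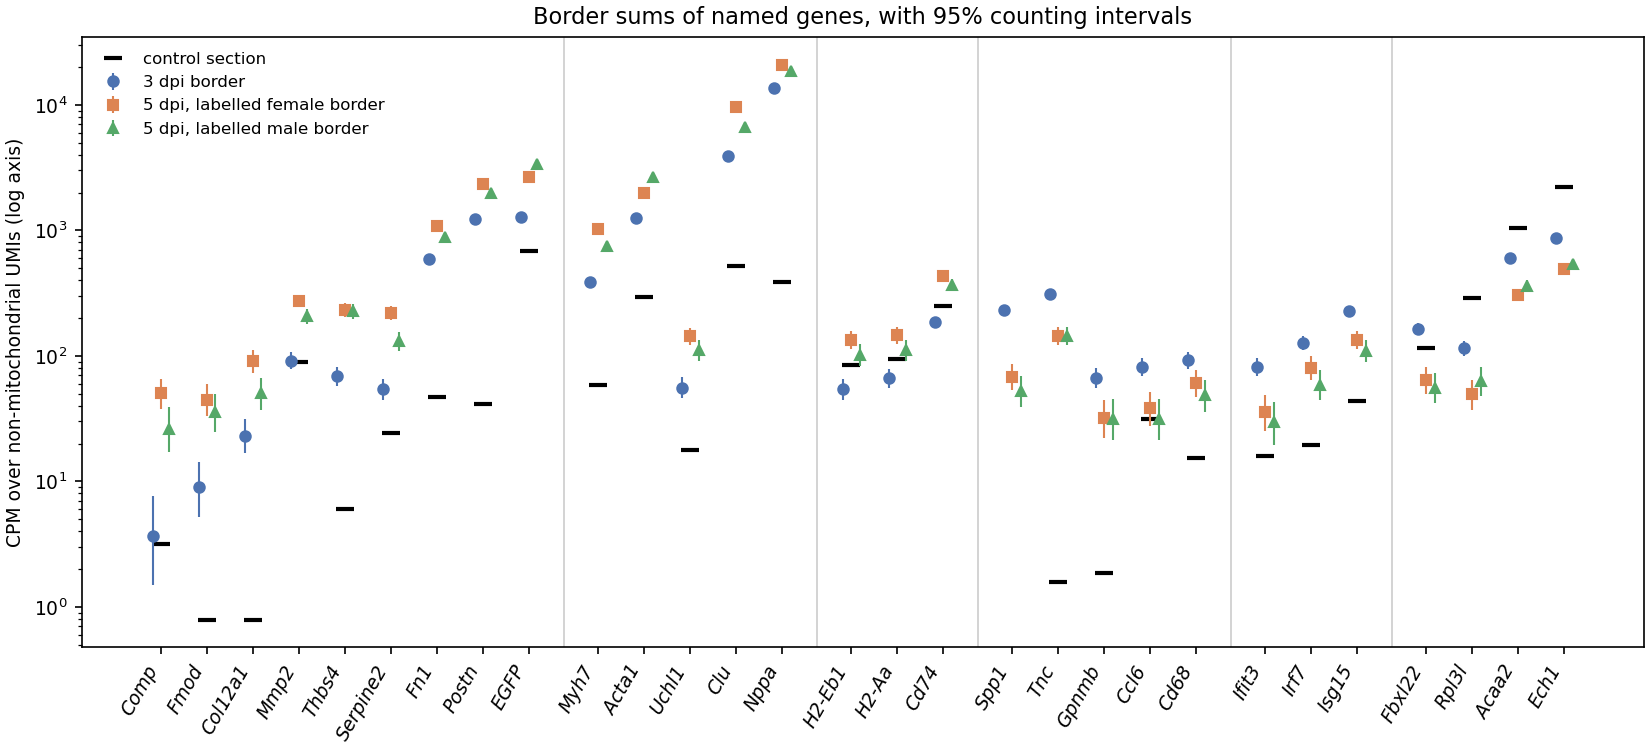
Border CPM of named genes on a log axis with exact 95% counting intervals: 3 dpi (circles), 5 dpi labelled female (squares), 5 dpi labelled male (triangles) and the control section (dashes). From left to right the groups are matrix, CM stress, antigen presentation, macrophage and matricellular genes that were lower, interferon-induced and muscle genes. Comp was at 3.69 CPM at 3 dpi against 50.4 and 26.3, and Spp1 at 233 against 68.1 and 52.6.

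Of 20 border CM stress genes 4 were higher, 0 lower, and the median log2 ratio was 0.39 for the section labelled female and 0.13 for that labelled male. In the RZ the medians of the same list were 0.50 and 0.24. Myh7 (ENSMUSG00000053093), the slow myosin heavy chain of the fetal ventricle, rose from 386 CPM at 3 dpi to 1021 and 753, with 59.0 in the control. Acta1, skeletal actin, was at 1243, 1980 and 2676 CPM. Clu, clusterin, an extracellular chaperone, reached 3913, 9543 and 6627 CPM, against 518 in the control. Uchl1, a deubiquitinase, was at 55.8, 143 and 112 CPM. The order of the 5 dpi hearts was not fixed: Acta1 was higher in the section labelled male, and the other 3 in that labelled female.

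Other stress genes were not called. Nppa, atrial natriuretic peptide, gave 13685 CPM at 3 dpi, then 20695 and 18670, with 388 in the control, and missed the fold. Nppb, the B-type peptide, was at 403, 282 and 245 CPM, with 227 in the control. Ankrd1, a stretch-responsive repressor, was at 3637, 4161 and 3800, and Xirp2, an actin-binding protein of cell junctions, at 463, 697 and 486. Sprr1a, a small proline-rich protein of stressed muscle, was at 331, 360 and 511 CPM and at 0 in the control. Among the zone genes themselves only Tnni3, troponin I, met the rule, at 5965, 3806 and 3452 CPM, and since they chose the spots this is given without weight.

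Among genes of mature muscle, 1 of 19 filament and Z disc genes outside the zone rule was lower, against 75 of all 5513 genes. Of 4 muscle isoforms of the translation machinery 1 was lower. Fbxl22 (ENSMUSG00000050503), a Z disc ubiquitin ligase subunit, fell from 164 CPM at 3 dpi to 64.3 and 55.7, with the control at 115. Rpl3l, the striated muscle form of a ribosomal protein, was at 115, 49.4 and 63.1 CPM against 290 in the control. Eef1a2, the muscle form of an elongation factor, was at 483, 341 and 157 CPM and was not called: the nearer 5 dpi heart missed the fold, at a log2 ratio of −0.50, and the 5 dpi hearts differed more from each other than that. Eef1a1, the general form, was at 2195, 2285 and 2202 CPM. The calcium pump Atp2a2 was at 5438, 3741 and 3408 CPM and missed the fold. Of 14 calcium cycling genes 0 were called, against 101 higher and 75 lower of all 5513.

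Of 22 fatty acid genes tested, 17 were below 3 dpi in both 5 dpi sections and 0 above in both, against 1800 below and 1433 above of all 5513 genes, with median log2 ratios of −0.43 and −0.32, while 2 met the rule. Acaa2, the thiolase that ends mitochondrial beta oxidation, was at 597 CPM at 3 dpi and 306 and 362 at 5 dpi, and Ech1, an isomerase of the same pathway, at 866, 491 and 540. The control stood higher than all of these, at 1035 for Acaa2 and 2231 for Ech1. Fabp3, the fatty acid carrier of muscle, divided, at 4887 CPM against 3525 and 6894. In the RZ the list had medians of −0.32 and −0.46. Cpt1b had 0 UMIs in each border and in the control section alike. Of 34 nuclear respiratory chain genes 0 were called, against 101 higher and 75 lower of all 5513. Of 21 glycolysis genes only Slc2a1, the glucose transporter, was called, higher at 24.2, 45.7 and 45.2 CPM.

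All 4 tested of 7 listed genes of MHC class II, which presents peptides to helper T cells, were called higher by size, with median log2 ratios of 1.19 and 0.82. The edgeR test covered 6 of the 7 and passed 0, with the smallest adjusted p, 0.123, for H2-Eb1. Cd74, the invariant chain, rose from 184 CPM at 3 dpi to 435 and 369. H2-Eb1 was at 54.2, 134 and 102 CPM, H2-Aa at 66.3, 145 and 110, and H2-Ab1 at 85.3, 149 and 128. Control levels of the 4 genes, 248, 83.8, 94.6 and 86.9 CPM, lay above the 3 dpi border and below both 5 dpi borders. In the RZ Cd74 was at 154, 355 and 151 CPM, so only the section labelled female was above 3 dpi there.

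By the rule of size alone, which is not a test, the macrophage and chemokine lists gave lower calls and no higher ones. Of 13 general macrophage genes 2 were lower and 0 higher. Cd68, a lysosomal marker, was at 92.1 CPM at 3 dpi and 60.6 and 48.4 at 5 dpi, while Lyz2, lysozyme, was at 951, 969 and 735. Among 8 genes of resident macrophages 3 were lower: the chemokine Pf4 at 202, 120 and 130 CPM, the folate receptor Folr2 at 53.2, 27.0 and 21.0, and the carbonyl reductase Cbr2 at 64.2, 24.2 and 33.7. Of 10 chemokines Ccl6, at 81.6, 38.2 and 31.6 CPM, and Ccl9, at 45.3, 28.9 and 22.1, were lower.

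The lowest ratio of all calls belonged to Spp1 (ENSMUSG00000029304), osteopontin, a secreted protein of wound macrophages. It fell from 233 CPM at 3 dpi (443 UMIs) to 68.1 and 52.6, 3.43-fold and 4.44-fold lower. The control had 0 UMIs. Gpnmb, a membrane glycoprotein of lipid-laden macrophages, was at 66.9, 31.7 and 31.6 CPM. The list of lipid-associated macrophage genes that holds it divided, with 5 of 12 members above 3 dpi in both 5 dpi hearts and 5 below, 2 called lower and 0 higher, and median log2 ratios of 0.08 and −0.18. Tnc, tenascin-C, a matricellular protein of fresh wounds, was at 313 CPM against 144 in each 5 dpi heart, and Tgfbi at 92.7, 59.7 and 52.6. Within the matricellular list, Tnc, Tgfbi and Spp1 were thus lower where Comp, Thbs4 and Postn were higher. Cfp, properdin, which stabilises the complement convertase, was at 44.2, 16.8 and 11.6 CPM, and Aldh1a2, which makes retinoic acid, at 86.4, 46.6 and 47.3.

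Interferon-induced genes held the most lower calls of any list, 9 of 15 tested, with 0 higher. In 14 of the 15 both 5 dpi borders were below 3 dpi, as in 1800 of all 5513 genes, and the median log2 ratio was −0.65 and −0.92. These genes answer type I interferon and are part of antiviral defence. Ifit3 (ENSMUSG00000074896), a partner of proteins that bind viral RNA, fell from 81.6 CPM at 3 dpi to 35.4 and 29.5, with 15.8 in the control. Isg15, a ubiquitin-like modifier, was at 229, 134 and 109 CPM. Irf7, the factor that amplifies interferon production, was at 126, 80.2 and 58.9, and Bst2, tetherin, at 359, 231 and 223. Usp18, Oasl2, Ifi44 and Ifi27l2a were also called. In sum the list was at 3726 CPM at 3 dpi, 2317 and 2490 at 5 dpi and 1309 in the control, so both 5 dpi sums were still above the uninjured level. The RZ had median log2 ratios of −0.49 and −0.63 for the same genes.

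Promoters of 3 of these genes are shown because they hold the letters GAAANNGAAA, the core of the element through which interferon-activated factors are known to bind. Each line gives the 200 bases before the RefSeq gene start (assembly GRCm38.p6), 5′ to 3′ on the strand of the gene, with matches on either strand in capitals. The Ifit3 window is chr19:34583329-34583528 on the plus strand, that of Isg15 chr4:156200819-156201018 on the minus strand, and that of Bst2 chr8:71537473-71537672 on the minus strand.
Ifit3: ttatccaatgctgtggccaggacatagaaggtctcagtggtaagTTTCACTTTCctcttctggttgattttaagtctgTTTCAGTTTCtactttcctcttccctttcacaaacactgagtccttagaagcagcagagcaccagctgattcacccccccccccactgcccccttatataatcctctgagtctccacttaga
Isg15: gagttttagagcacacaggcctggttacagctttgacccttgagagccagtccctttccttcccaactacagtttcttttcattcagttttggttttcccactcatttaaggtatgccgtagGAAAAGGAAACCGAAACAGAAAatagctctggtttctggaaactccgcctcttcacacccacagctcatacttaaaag
Bst2: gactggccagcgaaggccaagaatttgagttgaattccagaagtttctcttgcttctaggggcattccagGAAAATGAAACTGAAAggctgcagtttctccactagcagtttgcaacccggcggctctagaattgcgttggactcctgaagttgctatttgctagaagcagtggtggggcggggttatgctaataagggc

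Ifit3 holds the motif 2 times on the opposite strand, Isg15 has 3 overlapping matches and Bst2 2 overlapping ones. Over windows of 300 bases, 250 before to 50 after the start, 7 of the 11 list members that matched a promoter held it, against 1131 of 32851 promoters (3.44%). Of the 9 called members 6 had a promoter in the table and 3 of these held the motif, and of the 5 matched members that were not called 4 held it. A match describes letters and is not evidence of binding.

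Haemoglobin transcripts were also higher. Hbb-bs, adult beta globin, rose from 2189 CPM at 3 dpi to 8515 and 7025, with 4676 in the control. The erythroid markers Hba-a1, Hba-a2, Hbb-bs and Hbb-bt summed to 4104 CPM at 3 dpi, 16934 and 11872 at 5 dpi, and 3 of these 4 were called. The RZ showed the same, at 6884, 33155 and 15423 CPM, and so did the IZ at 3327, 23104 and 11896. The part of blood left in the tissue in the other results was not tested.

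**Figure D4:**
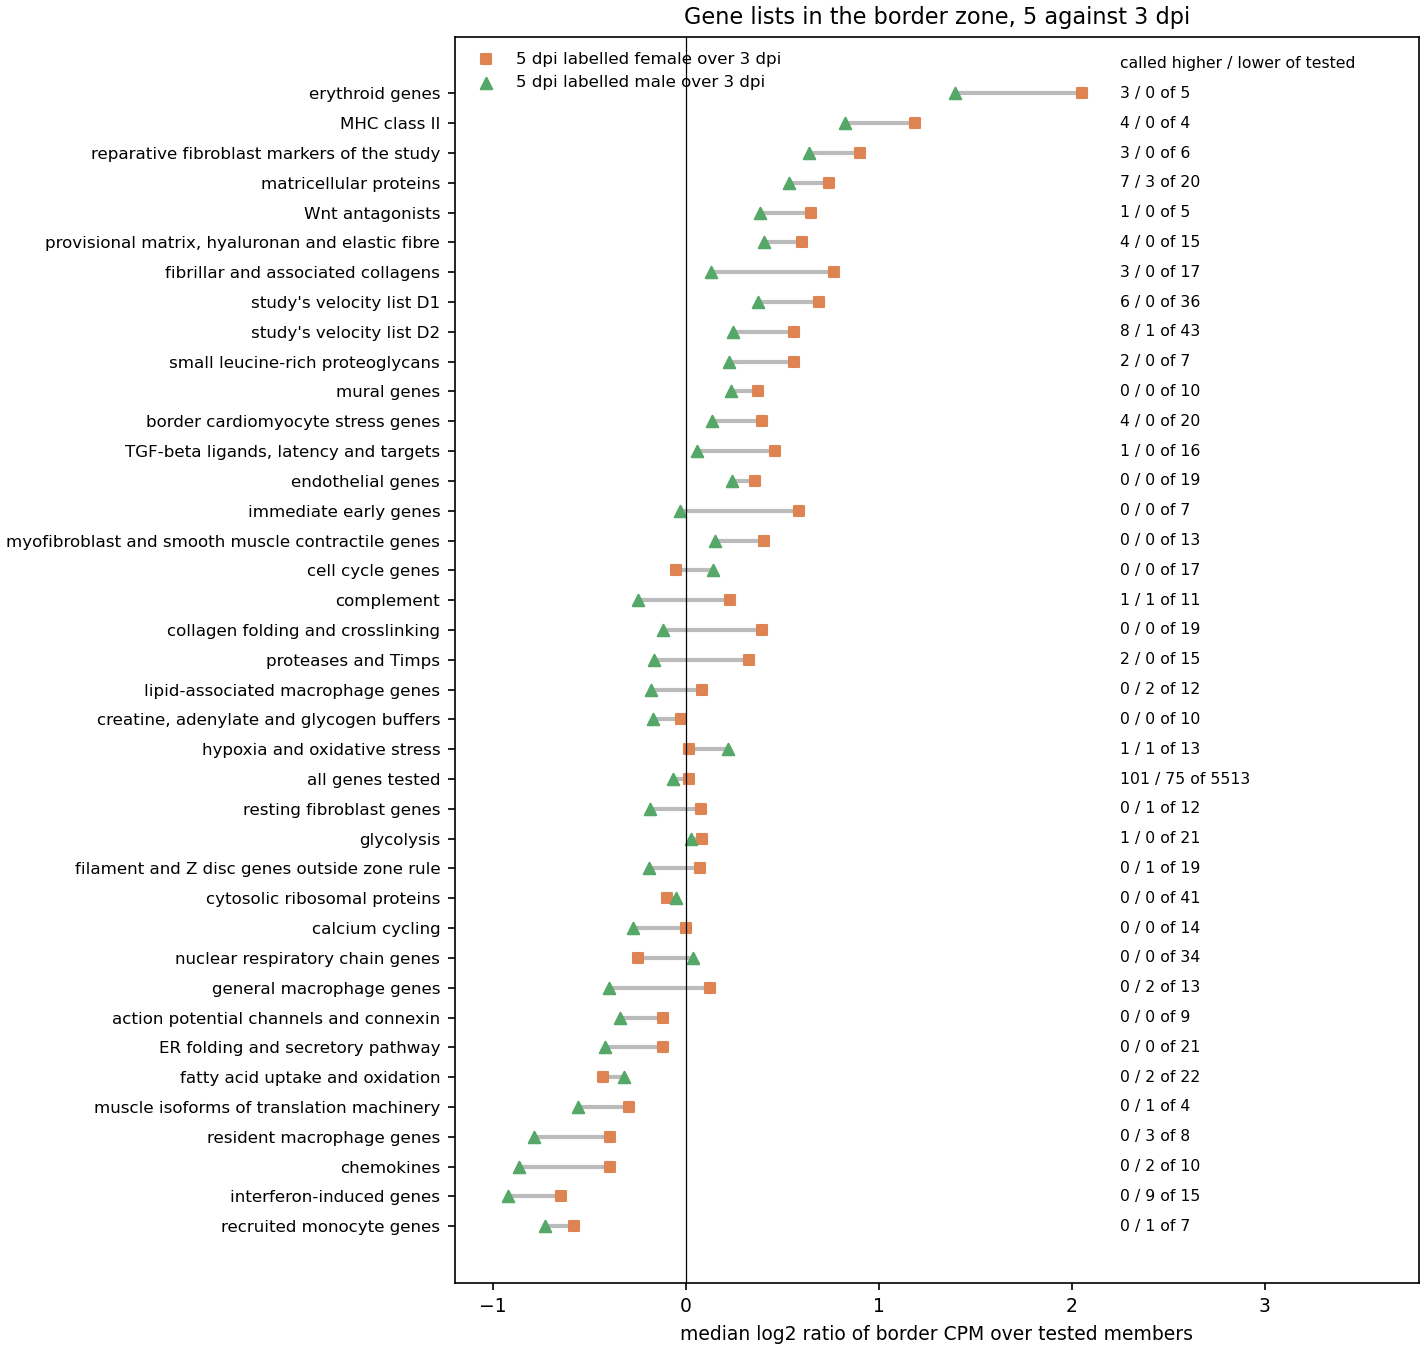
Median log2 ratio of border CPM over 3 dpi for the tested members of each gene list, 5 dpi labelled female (squares) and male (triangles), with counts called higher and lower of those tested at the right. MHC class II lies at 1.19 and 0.82 and interferon-induced genes at −0.65 and −0.92, while all 5513 genes lie at 0.02 and −0.07.

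Lists for housekeeping and vessel functions held no call in either direction: 41 cytosolic ribosomal proteins (medians −0.10 and −0.05), 21 endoplasmic reticulum folding genes (−0.12 and −0.42), 17 cell cycle genes (−0.05 and 0.14), 19 endothelial genes (0.36 and 0.24) and 10 mural genes (0.37 and 0.23). Over all 5513 genes 101 were called higher and 75 lower, so 0 calls in lists of this size is near the overall share. In the vessel lists, 13 of 19 and 7 of 10 members were above 3 dpi in both 5 dpi sections without a call, against 1433 of all 5513 genes. No lymphocyte or mesothelial gene reached the mean of 20 CPM that the size rule needs, and of the 2 mesothelial genes in the edgeR test of the border 0 passed.

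Within the border, distance from the IZ ordered many genes. Thbs4 at steps 1, 2, 3 and 4 was at 76.9, 80.6, 45.3 and 52.7 CPM at 3 dpi, at 311, 192, 187 and 109 at 5 dpi labelled female and at 404, 172, 137 and 120 labelled male. So at 5 dpi Thbs4 was highest beside the IZ, and the nearer heart was still 2.06-fold above 3 dpi at step 4. Comp labelled male was at 62.5 CPM at step 1 and between 4.77 and 13.3 at the other steps, whereas labelled female it went from 65.1 to 22.9. Those other steps of the section labelled male held 209748, 211789 and 224920 UMIs outside mitochondrial genes, so the low values of Comp rest on few UMIs. Clu declined with distance at both times, from 5138 to 2564 CPM at 3 dpi, from 13180 to 4707 and from 10784 to 3708 at 5 dpi. The median CM share, which chose the spots, went from 6.22% at step 1 to 8.96% at step 4 at 3 dpi, from 5.203% to 7.16% and from 5.45% to 7.46% at 5 dpi, and its part in these profiles was not tested.

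At 3 dpi Spp1 went from 294 CPM at step 1 to 115 at step 4, and Tnc from 417 to 174. Spp1 was also lower at step 4 than at step 1 in both 5 dpi hearts, at 22.9 against 93.6 CPM and at 26.7 against 65.7. At 5 dpi Tnc lay between 125 and 155 in the section labelled female and between 94.4 and 172 in that labelled male, with no order by step. The nearer heart was below 3 dpi by 2.70-fold, 1.85-fold, 1.45-fold and 1.12-fold at steps 1 to 4, so the gap of Tnc closed with distance.

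Myh7 was flat at 3 dpi, between 371 and 435 CPM over the steps. The section labelled female was flat too, between 944 and 1052, and that labelled male declined from 1032 at step 1 to 552 at step 3 and 618 at step 4. Fbxl22 and Acaa2 ran the other way and were lowest beside the IZ in each section. Acaa2 was at 450 CPM at step 1 and 796 at step 4 at 3 dpi, then at 212 and 515 labelled female and 233 and 494 labelled male. At the same step, both 5 dpi hearts were below 3 dpi by at least 1.55-fold for Acaa2 and at least 2.38-fold for Fbxl22.

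Isg15 did not keep its direction. In the section labelled female it was at 89.5 CPM at step 1 and at 240 at step 4, above the 191 of 3 dpi there, while that labelled male stayed between 99.2 and 120. Irf7 crossed at step 4 in the same section, at 103 against 88.9 CPM. Oasl2 was at 28.6 and 26.7 CPM at step 4, against 26.3 at 3 dpi, and Usp18 at step 3 was at 39.7 in the section labelled female, against 24.2. Steps 3 and 4 of that section held 176398 and 174851 UMIs outside mitochondrial genes, so the values of Oasl2 and Usp18 there rest on few UMIs. Ifit3 stayed below 3 dpi at all 4 steps in both hearts.

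**Figure D5:**
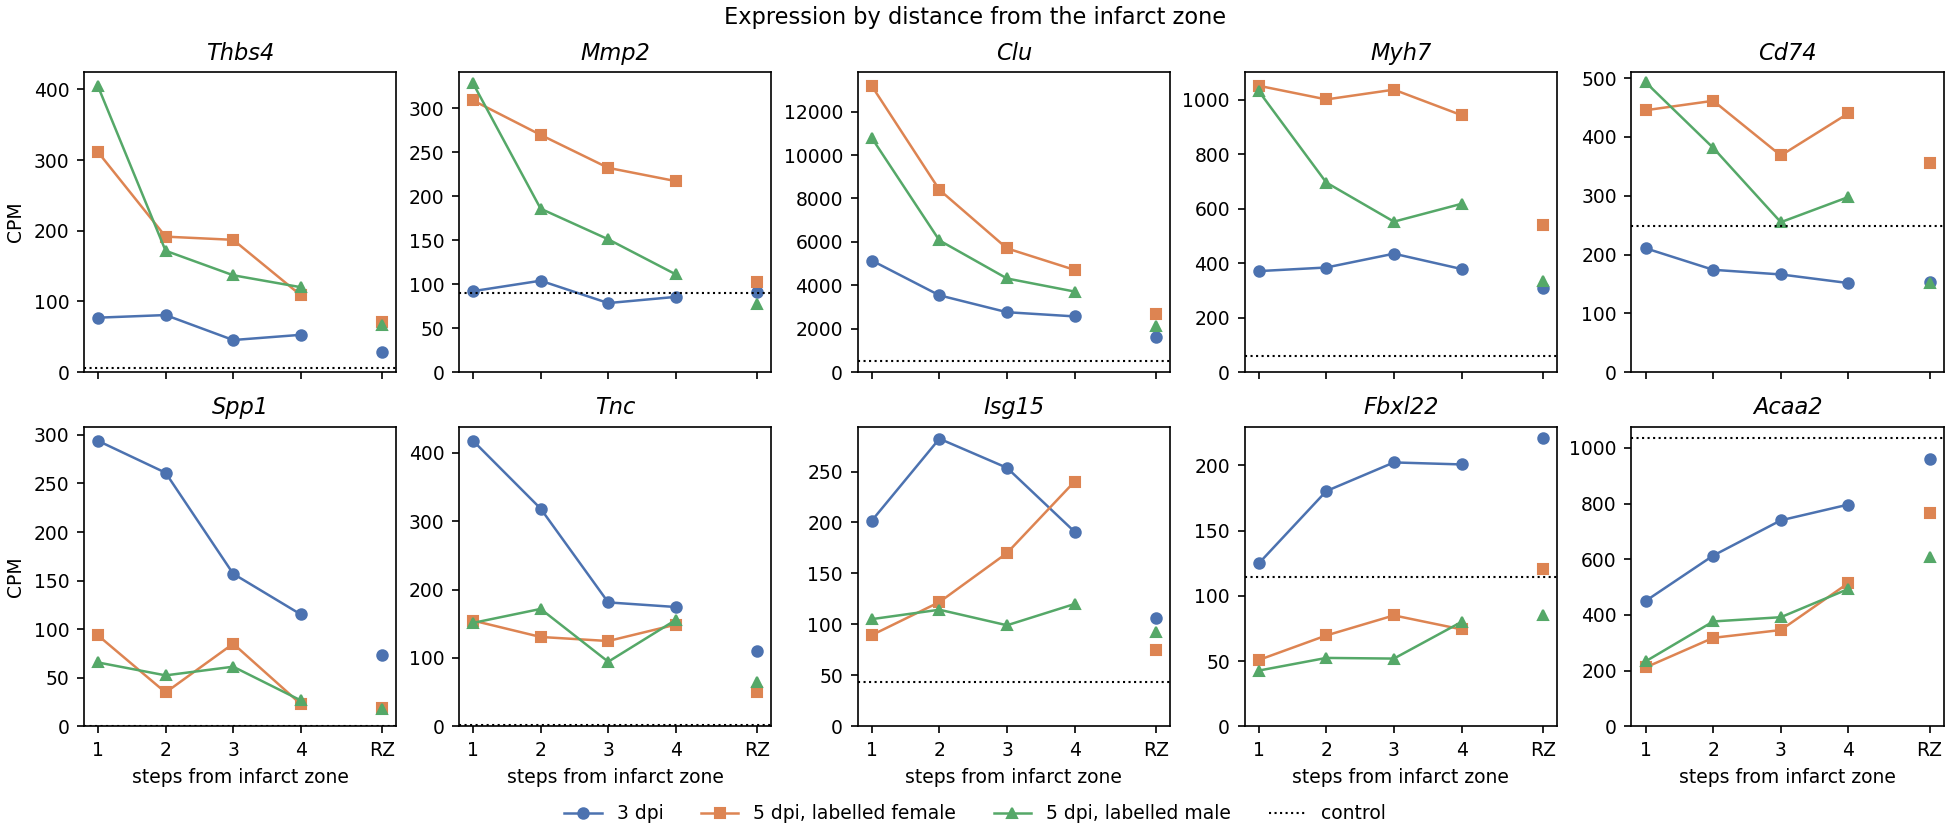
CPM of 10 genes at 1, 2, 3 and 4 steps from the IZ and in the RZ, linear axes from 0, with 3 dpi (circles), 5 dpi labelled female (squares), labelled male (triangles) and the control section (dotted line). Thbs4 at step 1 was at 311 and 404 at 5 dpi against 76.9, and Isg15 in the section labelled female rose to 240 at step 4.

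Over all named genes, 37 called higher and 26 called lower were profiled in this way. Of the 37, 33 were above 3 dpi in both 5 dpi hearts at each of the 4 steps, and 12 were at least 1.5-fold above at each. Of the 26, 18 were below at each step and 6 at least 1.5-fold below. At least 1.5-fold differences were held by 35, 30, 21 and 26 of the 37 higher genes at steps 1 to 4, and by 22, 20, 15 and 11 of the 26 lower ones. The same spots made the calls, so these counts describe where in the border they lay.

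Shares of border spots with at least 1 UMI were compared after each spot was thinned to 2378 UMIs outside mitochondrial genes, which left 357 spots at 3 dpi, 224 and 171 at 5 dpi and 800 in the control, and left out 95, 25, 25 and 365 shallower ones. Spp1 was found in 41.2% of thinned spots at 3 dpi (interval 36.0 to 46.5), in 12.9% (8.84 to 18.1) and 10.5% (6.36 to 16.1) at 5 dpi and in 0 of 800 control spots. Unthinned shares were 55.8%, 21.3% and 17.9%. The fewer UMIs of Spp1 thus came with fewer spots that held any.

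Thbs4 was found in 14.3% of thinned spots at 3 dpi and in 35.7% and 36.3% at 5 dpi, against 1.88% in the control, and without thinning in 19.9%, 49.0% and 44.9%. Cd74 was in 29.7%, 58.9% and 49.1%, against 37.0% in the control, and unthinned in 45.8%, 70.7% and 63.3%. Postn was nearly everywhere, in 85.4%, 97.3% and 95.3% of thinned spots and 10.1% of the control's. Myh7 was in 54.6%, 83.9% and 64.9% and in 13.1% of the control's, and the interval of the section labelled male (57.3 to 72.04) overlapped that of 3 dpi (49.3 to 59.9). For Isg15 the shares were 37.8%, 27.2% and 20.5%, and the interval of the section labelled female (21.5 to 33.6) overlapped that of 3 dpi (32.8 to 43.1).

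A count model was fitted to the 3 border sums. With 1 residual degree of freedom the spread was estimated over all genes together, and the 3 dpi heart was assumed to vary like the 5 dpi hearts. By the quasi-likelihood test of edgeR (Benjamini-Hochberg adjustment over 9193 genes), 30 genes were higher at 5 dpi (0.326%) and 10 lower (0.109%), and 426 had an unadjusted p under 0.05. Of these, 18 and 4 were also called by size. DESeq2 on the same sums called 3 higher and 0 lower, and with the zone limit at 0.6 edgeR called 0 and 1, so the test depended on the tool and on where the border was drawn.

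Comp had the smallest adjusted p, 3.79e-08, with a log2 fold change of 3.38 ± 0.49 (SE) by edgeR's quasi-likelihood test. Spp1 was at −1.93 ± 0.31 (edgeR adjusted p = 2.34e-06), Fmod at 2.18 ± 0.41 (0.000159) and Thbs4 at 1.77 ± 0.36 (0.000788). Serpine2, Serpinb1a, Mest, Col12a1, Mdk, Mmp2 and Cd200 also passed higher, and Cfp, Fbxl22 and Ifit3 lower. Of the interferon list Rsad2, viperin, passed this test without being called by size, at 71.6 CPM against 38.2 and 17.9, as its 5 dpi hearts differed more from each other than the nearer from 3 dpi. Clec3b, tetranectin, a plasminogen-binding protein, fell from 39.5 CPM at 3 dpi to 6.53 and 5.26 (7 and 5 UMIs), against 70.6 in the control. Its mean was under the filter of the size rule, and it had the lowest log2 fold change that passed, −2.70 ± 0.43 (edgeR adjusted p = 1.21e-06). Comp and Fmod held 7 and 17 UMIs at 3 dpi and passed the filter of the size rule through the 5 dpi sections alone. The Y-linked genes Ddx3y and Eif2s3y were among the 30, carried by the section labelled female alone. Myh7 (adjusted p = 0.147), Clu (0.412), Cd74 (0.161), Postn (0.813), Isg15 (0.424) and EGFP (0.111) did not pass edgeR's test.

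Whether the border changed by other amounts than the RZ was tested as an interaction of zone and time over 9 zone sums with the section as a block. Of 11341 genes 0 passed the quasi-likelihood test of edgeR after Benjamini-Hochberg adjustment (0.0% in each direction), 486 had an unadjusted p under 0.05, and DESeq2 called 0 as well, with 67 at an unadjusted p under 0.05. Mmp2 had the smallest adjusted p, 0.307, with a border change above the RZ change by a log2 of 1.42 ± 0.30 (SE). Its RZ levels were 91.6, 103 and 77.4 CPM against 91.6, 273 and 206 in the border. Ccl6 was at −1.62 ± 0.36 (edgeR adjusted p = 0.316), with 50.2, 56.0 and 74.5 CPM in the RZ, where it was not lower at 5 dpi. With the zone limit at 0.4 times the percentile 4 genes passed this test, with the smallest edgeR adjusted p at 0.00246, and 2 passed with steps 1 to 2 and 3 to 4 as separate zones (0.030).

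Against the IZ, the log2 change from 3 to 5 dpi in the border minus that in the IZ was above 0 for 129 genes (1.14%) and below 0 for 33 (0.291%) by the same edgeR test, and for 84 and 12 by DESeq2. The sign gives the order of the signed changes, so that a gene which fell in both zones and further in the IZ is above 0. The IZ spots were picked for low muscle RNA, so differences in muscle genes are not independent of the rule. CM markers in the IZ summed to 20552 CPM at 3 dpi and 7270 and 8676 at 5 dpi. Of the 12 zone genes 11 and of the 20 border CM stress genes 11 were among the 129, and these are given as description. Among genes of other cells, Spp1 was lower in the border and at 2706, 2657 and 1773 CPM in the IZ, a difference in change of −1.66 ± 0.28 (edgeR adjusted p = 0.000449). Gpnmb was at 359, 553 and 588 CPM in the IZ, with −1.75 ± 0.31 (edgeR adjusted p = 0.000716).

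Acta2, not called in the border, was at 709, 1630 and 1352 CPM in the IZ, with a difference of −1.13 ± 0.25 (edgeR adjusted p = 0.0092). Mest was at 68.1, 67.5 and 83.5 CPM in the IZ and had 1.45 ± 0.35 (edgeR adjusted p = 0.0183). For Thbs4 the difference was 0.34 ± 0.27 (edgeR adjusted p = 0.82), with IZ levels of 69.3, 177 and 188 CPM, and the 5 dpi border was above the IZ in both hearts. Comp and Fmod were higher in the IZ at 5 dpi, at 137 and 212 and at 130 and 136 CPM. Ifit3 and Isg15 were lower at 5 dpi in the IZ too, at 105.5, 45.5 and 46.9 and at 365, 203 and 214 CPM.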

How the data were processed

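The values deposited by the authors were raw UMI counts per gene and spot, made with Space Ranger (mm10 in the submitters' processing notes; an Ensembl-based reference with a GFP sequence added, per the study's methods), with tissue spots picked by hand. The counts covered 21885 genes, with symbols and identifiers but no genome positions. Kept spots lay under tissue and held at least 500 UMIs, 1753 at 3 dpi, 1567 (labelled female) and 1423 (labelled male) at 5 dpi and 1166 in the control; 623 spots of the section labelled male were not marked as tissue and were left out. They held 10708223, 11269552, 9701545 and 6370134 UMIs. Doublets have no meaning for spots and were not called.

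Sums of UMIs over each zone of a section were scaled to CPM over UMIs outside 13 mitochondrial genes. Count tests were run with edgeR 4.0.16 (limma 3.58.1, R 4.3.3; quasi-likelihood, TMM, default filter) and DESeq2 1.42.0, both tested on simulated data, with Benjamini-Hochberg adjustment at 0.05. Other steps used Python 3.11.15, NumPy 2.4.6, SciPy 1.17.1 and pandas 2.3.3. TMM shifted log2 ratios by −0.04 and 0.09 for the 5 dpi sections labelled female and male.

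Named were the 12 highest and 12 lowest called genes with a mean of at least 50 CPM (zone genes, sex-linked genes and GFP left out), up to 4 members of each of 44 lists and a panel of 25 genes; others were named after their values were seen. Members and lists were chosen with earlier results of these data known. In the lists 4 symbols had no match. Reads of near-identical copies such as Hba-a1 and Hba-a2 cannot be told apart with certainty, and 40 genes share a symbol with another. Promoters came from RefSeq (GRCm38.p6). Alternatives changed the zone limit, patch size, steps, spot filter, scaling, expression filter, fold, tool and sections; counting intervals were added after seeing the data. The results of a few list members are not reported here. No other columns or comparisons of the authors were used.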

Additional observations from a re-analysis of the deposited data

Results flagged for a closer look

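The signed log2 change from 3 to 5 dpi differed between border and IZ for 162 genes by the interaction test of edgeR. Among the named genes reported here, the 12 zone genes left out, the difference of log2 changes, border minus IZ, was above 0 for Srl at 2.10, Ckmt2 at 1.77, Myh7 at 1.75, Nppb at 1.67, Xirp2 at 1.66, Ankrd1 at 1.57, Acta1 at 1.55, Casq2 at 1.48, Cox6a2 at 1.36, Eef1a2 at 1.06 and Atp2a2 at 1, all genes of muscle. The IZ was chosen for low muscle RNA, so these values are not independent of the rule. It was also above 0 for Fabp4 at 1.45, Mest at 1.45, Slc2a1 at 1.24 and Bnip3 at 1.07. It was below 0 for Eln at −2.25, Gpnmb at −1.75, Spp1 at −1.66, Fbln5 at −1.62, Cfp at −1.47 and Acta2 at −1.13. Eln and Fbln5 were called higher in the border, and the IZ gained more of both.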

How the results depend on the processing

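The number of hearts limits these results: the 3 dpi border has no replicate, and counting intervals cover 1 section each. Genes called higher and lower were 101 and 75; they were 61 and 143 with the zone limit from the control section (9 and 25 shared), 183 and 122 at steps 1 to 2, 267 and 170 at steps 3 to 4, 287 and 151 in spots at 0.75 times the percentile or above, 354 and 274 from a mean of 5 CPM, 45 and 25 from 50 CPM, and 23 and 9 at 2-fold. Over all UMIs 34 were lower. Where counting intervals also had to be apart, an alternative chosen after seeing the data, 54 and 34 stayed. Leaving out 1 section at 5 dpi gave 242 to 447 higher and 252 to 565 lower. No gene called both here and under an alternative turned direction.

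The edgeR test of the border called 40 genes, 67 with the limit at 0.4, 1 at 0.6 and 3 with DESeq2. Against the RZ it called 0, 4 at the limit of 0.4 and 2 with steps 1 to 2 and 3 to 4 as separate zones. Against the IZ it called 162 of 11341 genes, 96 with DESeq2, which gave an adjusted p for 2546, and 305 of 10349 with separate steps. The causes were not tested. Leaving a 5 dpi section out left no residual degrees of freedom, so that was not run for edgeR. No paired analysis was possible because 3 dpi has 1 heart and shares fewer than 2 replicate numbers with 5 dpi.

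Border extent at 3 dpi was 25.8%, and 29.8%, 21.8% and 14.9% with limits at 0.4, 0.6 and from the control. For the section labelled female it was 15.9%, and 17.2%, 13.98% and 11.6% with the same limits. For that labelled male it was 13.8%, and 11.7%, 16.4% and 20.4%. Log2 ratios of the nearer 5 dpi section for Ddah1, Pdgfrl and Fbln5 turned to −0.54, −0.072 and −0.18 with the limit from the control. In at least 1 of 13 alternatives the 5 dpi hearts were not both above 3 dpi for Comp, Thbs4, Postn, Clu and Myh7. The same held for Mmp2, Col12a1, Fn1, Cd74, H2-Eb1, H2-Aa and H2-Ab1, and for other genes called higher. Of 13 alternatives, Spp1, Ifit3, Fbxl22, Mest, Rflnb, Hbb-bs and EGFP were called in 13, Thbs4 in 11 and Fmod and Myh7 in 9. Comp was called in 8, Pf4 in 7 and Oasl2 in 6.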
